A study of Mus musculus with 19 samples.

Results

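The genes described here are 43 interferon-induced genes of the mouse, chosen by name from what interferons are known to switch on. Each gene was read from 1 probe set annotated with its symbol alone, the brightest on average where there were several. Of the 43 genes, 41 had such a probe set, and all 41 reached log2 4 on at least 2 arrays; Isg15 and Ifi44 were not analysed here. They stand among 9928 genes that passed the same filter, of 18193 genes with a probe set of their own.

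Expression was measured in CD4+ T cells on 19 arrays, 1 for each sorted sample of C57BL/6J mice. Per a protocol text that the labels repeat for the samples, OT-II cells, whose T cell receptor recognises ovalbumin, carried Bcl6yfp/+, an allele that reports BCL6 as yellow fluorescence, and were given to recipient mice; NP-OVA, ovalbumin with a hapten attached, was then injected under the skin in CFA, Freund's complete adjuvant. Immunized cells came from draining lymph nodes. T follicular helper (Tfh) cells were the CXCR5hi PD-1hi cells, and those of the reporter mice were split into YFP-positive cells (4 arrays, 3 at day 7 and 1 at day 10) and YFP-negative cells (4 arrays, 2 at day 7 and 2 at day 10). CXCR5lo PD-1lo cells, activated cells without the Tfh surface phenotype, gave 3 arrays, all at day 7. Undivided CXCR5hi PD-1hi cells were sorted from Bcl6yfp/+ cells (3 arrays, day 7) and from Bcl6+/+ cells, which lack the reporter allele (3 arrays, 1 at day 7 and 2 at day 10). Naive CD4+ cells (2 arrays) came from the spleen of unimmunized mice, so that tissue and immunization cannot be told apart in any comparison with them. The labels give neither the ages of the mice nor whether a group's arrays stem from different animals, so p-values here reflect spread among samples that may be technical.

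Interferons are cytokines that warn cells of infection. Type I interferons act through the receptor chains Ifnar1 and Ifnar2, and interferon gamma, a product of activated T cells, acts through Ifngr1 and Ifngr2. Their Janus kinases activate STAT proteins, which with Irf9 bind the interferon-stimulated response element (ISRE) or, as STAT dimers, the gamma-activated site (GAS) beside the induced genes. The products include sensors of foreign nucleic acid, enzymes that degrade viral RNA or stop its translation, membrane proteins that block virus entry or release, GTPases that attack viruses and vacuoles, and parts of the antigen presentation machinery. In T cells the same genes follow interferon met during priming and respond in part to T cell activation itself.

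The response elements can be read in the promoters of the list. RefSeq start sites on GRCm38.p6 gave a window of 250 bases before to 50 bases after the start for 32 of the 41 genes, 40 windows in all; Dhx58, Ifi27, Mx1, Oas2, Parp14, Parp9, Rtp4, Usp18 and Zbp1 had none. The ISRE core, GAAA and GAAA with 2 bases of any kind between them, searched on both strands with overlaps counted, was in a window of 17 of these 32 genes (53.1%), against 3.99% of 27025 genes with a window. The GAS core TTCNNNGAA, searched the same way, was in a window of 11 of the 32 genes (34.4%), against 9.55% of all genes. These matches describe letters, not bound sites. The 250 bases before the start are printed for 5 genes to which the results below return, each 5′ to 3′ on the strand of its gene, with the ISRE core in capitals on whichever strand it lies. Positions count from the start base as 0. Ifit1 (chr19:34640639-34640888, plus strand) has matches that begin at -104 and -85. Bst2 (chr8:71537473-71537722, minus strand) has 2 overlapping matches at -130 and -124. Gbp2 (chr3:142620413-142620662, plus strand) has a match at -59, and Rsad2 (chr12:26456453-26456702, minus strand) has a match at -120. Ifitm3 (chr7:141010745-141010994, minus strand) has no match in these bases, and its 2 matches begin at 2 and 19, after the start.
Ifit1: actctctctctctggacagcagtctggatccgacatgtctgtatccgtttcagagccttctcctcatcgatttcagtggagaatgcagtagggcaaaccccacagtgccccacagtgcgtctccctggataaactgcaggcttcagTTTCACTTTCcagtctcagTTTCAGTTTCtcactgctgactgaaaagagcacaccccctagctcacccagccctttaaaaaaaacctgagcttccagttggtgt
Bst2: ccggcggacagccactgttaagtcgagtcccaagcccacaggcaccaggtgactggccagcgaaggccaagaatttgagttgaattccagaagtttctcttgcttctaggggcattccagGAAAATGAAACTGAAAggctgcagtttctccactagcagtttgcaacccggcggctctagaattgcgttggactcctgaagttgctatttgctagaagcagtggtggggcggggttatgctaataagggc
Gbp2: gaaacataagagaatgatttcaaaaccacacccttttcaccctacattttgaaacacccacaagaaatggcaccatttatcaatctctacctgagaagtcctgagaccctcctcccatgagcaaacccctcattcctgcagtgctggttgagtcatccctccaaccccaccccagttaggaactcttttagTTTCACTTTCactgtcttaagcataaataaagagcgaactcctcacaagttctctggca
Rsad2: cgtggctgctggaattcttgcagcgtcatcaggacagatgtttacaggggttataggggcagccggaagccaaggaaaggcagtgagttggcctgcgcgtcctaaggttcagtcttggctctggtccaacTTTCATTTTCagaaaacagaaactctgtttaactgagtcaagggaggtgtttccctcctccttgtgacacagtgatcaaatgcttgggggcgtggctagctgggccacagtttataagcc
Ifitm3: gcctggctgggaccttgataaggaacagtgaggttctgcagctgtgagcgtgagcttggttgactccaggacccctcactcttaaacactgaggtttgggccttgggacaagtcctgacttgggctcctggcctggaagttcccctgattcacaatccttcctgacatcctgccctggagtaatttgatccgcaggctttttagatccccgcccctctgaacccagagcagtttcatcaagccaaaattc

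As a whole the list was well expressed in every group. Of the 41 genes, 30 (73.2%) were at log2 8 or more on all 19 arrays, against 64.7% of all genes tested, and 36 were at log2 4 or more on all. Ifitm1 was at log2 4 or more on 3 arrays, Ifitm2 on 5 and Oas2 on 9. The mean level of the 41 genes was 10.00 ± 0.05 (SD, n = 2) in naive cells, 10.04 ± 0.07 (SD, n = 4) in YFP-positive cells, 10.43 ± 0.33 (SD, n = 4) in YFP-negative cells, 10.69 ± 0.24 (SD, n = 3) in Bcl6+/+ Tfh cells, 10.78 ± 0.03 (SD, n = 3) in Bcl6yfp/+ Tfh cells and 11.25 ± 0.07 (SD, n = 3) in CXCR5lo PD-1lo cells. Naive and YFP-positive cells thus had the lowest means as deposited and CXCR5lo PD-1lo cells the highest. Arrays were scaled differently, however. Above the mean of all genes on the same array, the list stood at 0.23 in YFP-positive, 0.695 in YFP-negative and 0.72 in naive cells. It stood at 0.72 in Bcl6+/+, 1.10 in Bcl6yfp/+ and 1.43 in CXCR5lo PD-1lo cells. On that scale YFP-positive cells alone were low, and naive cells lay beside YFP-negative and Bcl6+/+ cells. Without the 3 Ifitm genes and as deposited, the CXCR5lo PD-1lo mean of 11.25 ± 0.13 lay beside that of Bcl6yfp/+ cells, 11.32 ± 0.06, and of Bcl6+/+ cells, 11.24 ± 0.25 (SD). YFP-negative cells were at 10.95 ± 0.29, and YFP-positive and naive cells lay together at 10.53 ± 0.04 and 10.54 ± 0.08 (SD). Gene by gene and as deposited, the lowest group mean was in naive cells for 21 genes and in YFP-positive cells for 19. The highest was in Bcl6yfp/+ cells for 18 genes, in CXCR5lo PD-1lo cells for 11 and in Bcl6+/+ cells for 9. The same counts over all genes were not taken. As deposited, 7033 to 7948 of all 9928 genes lay above naive cells in the comparisons with them below.

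**Figure D1:**
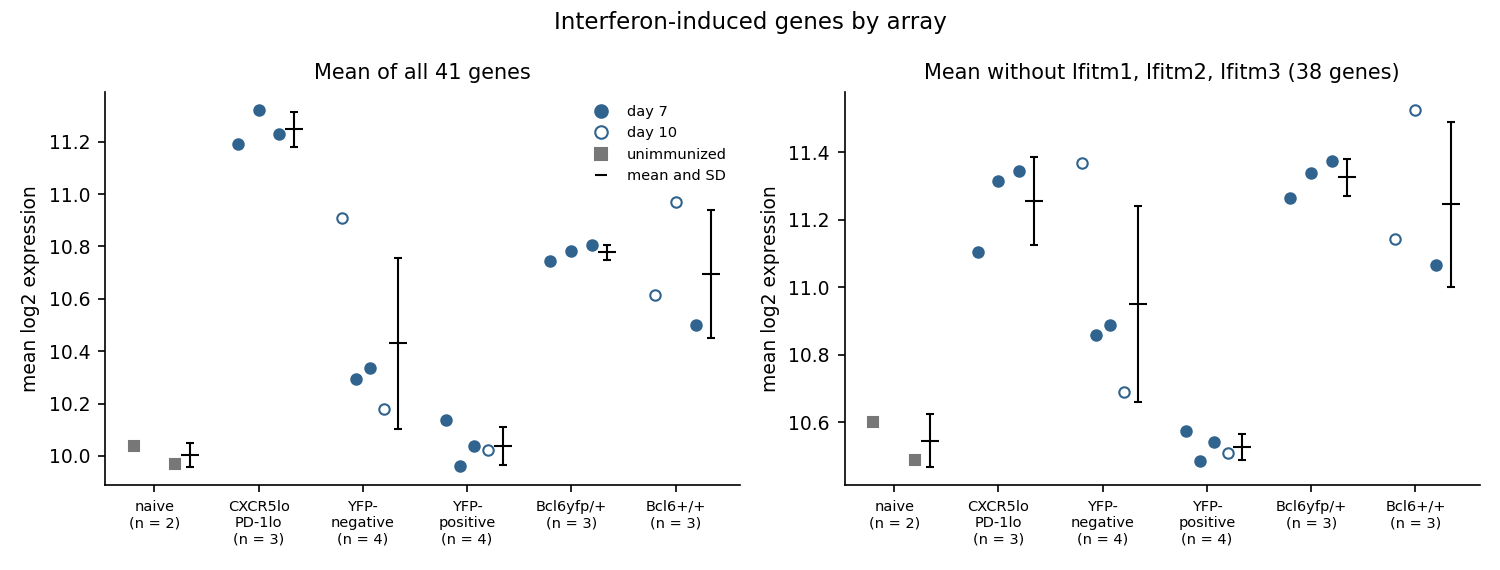
Mean log2 expression of the interferon-induced genes on each array (points), with the mean and SD of each group; the left panel covers all 41 genes and the right panel leaves out Ifitm1, Ifitm2 and Ifitm3. The 4 YFP-positive arrays lie between 9.96 and 10.14 in the left panel, below all 4 YFP-negative arrays, the lowest of which is at 10.18.

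Several properties of the arrays bear on every comparison. The deposited columns fell into 7 sets of arrays with a common distribution, called normalization sets here. Sets 1, 2 and 3 each held the same-numbered replicates of the CXCR5lo PD-1lo cells and of both YFP populations; both replicates 4 shared set 4 with naive replicate 1; and the Bcl6 genotypes and naive replicate 2 lay in sets 5 to 7. Xist, which is transcribed in female cells, was at 13.01 to 14.07 on all day 7 arrays of the 3 reporter-sorted groups and at 1.97 to 2.08 on their 3 day 10 arrays, so that day and sex cannot be told apart there; it was at 1.99 to 2.15 on all arrays of both Bcl6 genotypes, and the 2 naive arrays differed. The 6 T cell markers were at log2 8 or more on every array. YFP-negative replicate 1 stood apart by markers of other cells: the plasma cell gene Jchain was at 12.42 and the macrophage gene Lyz2 at 10.98, against 2.20 to 3.06 and 2.30 to 2.44 on the other 3 YFP-negative arrays. On YFP-positive replicate 1 Jchain was at 8.45 and Lyz2 at 6.73, and on CXCR5lo PD-1lo replicate 1 they were at 10.53 and 6.76.

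Part of the list was lower in reporter-sorted Tfh cells than in CXCR5lo PD-1lo cells, and the largest differences were those of the Ifitm genes and Oas2. Against CXCR5lo PD-1lo cells, 14 of the 41 genes fell in YFP-positive cells and 0 rose, where 5.39% and 5.17% of all genes were lower and higher by the same rule (limma, adjusted p under 0.05 over all 9928 genes). In YFP-negative cells 6 fell and 0 rose, where the percentages of all genes were 3.39% and 3.13%. The median difference of the 41 genes was -0.55 on the log2 scale in YFP-positive cells (all genes -0.07) and -0.11 in YFP-negative cells (all genes -0.09). In YFP-positive cells 37 of the 41 genes lay below 0 (56.3% of all genes), and 22 did so without overlap of the groups (14.2% of all genes lower and 8.75% higher). Both comparisons use the same CXCR5lo PD-1lo arrays. Arrays were scaled differently as deposited, and with every array moved to the same median the YFP-negative median became 0.01 (all genes 0.04), while the YFP-positive one stayed at -0.49. RNA came from sorted populations, in which fewer expressing cells and less RNA per cell cannot be told apart.

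The interferon-induced transmembrane genes Ifitm1, Ifitm2 and Ifitm3, whose products hold viruses back at cell membranes, made the largest differences. Ifitm1 was at 12.42, 11.89 and 10.02 in the 3 CXCR5lo PD-1lo samples, at 2.11 to 2.50 in all 8 reporter-sorted Tfh samples, and at 3.15 or less on every other array. Ifitm2 was at 11.65, 10.44 and 8.48 in CXCR5lo PD-1lo cells, at 4.79, 3.12, 3.16 and 3.35 in YFP-positive cells and at 4.53, 2.28, 2.44 and 3.0 in YFP-negative cells. Both genes were high in the CXCR5lo PD-1lo samples, with no overlap. In the Tfh samples Ifitm1 was near the floor of the scale, about log2 2, and so was Ifitm2 on most arrays, but not on replicate 1 of either population. Ifitm3 was at 12.84, 11.88 and 10.78 in CXCR5lo PD-1lo cells, against 6.88, 4.70, 5.45 and 5.82 in YFP-positive cells and 8.71, 4.93, 5.31 and 5.58 in YFP-negative cells. It was thus measurable in Tfh cells too, at intermediate levels, and highest there in YFP-negative replicate 1. Ifitm1 passed the filter on low values through the CXCR5lo PD-1lo arrays alone, so its difference is a description and no p is given; without it the counts above were 13 and 5 of 40 genes. The fitted difference of YFP-positive from CXCR5lo PD-1lo cells was -6.59 ± 0.66 (SE) for Ifitm2 and -6.12 ± 0.85 for Ifitm3, with limma adjusted p of 3.30e-06 and 1.23e-04. In YFP-negative cells the differences were -7.13 for Ifitm2 and -5.70 for Ifitm3. With all values under log2 4 raised to 4, so that sizes lean less on the floor, Ifitm1 was 174-fold and Ifitm2 63.7-fold lower in YFP-positive cells, and Ifitm2 was 66.6-fold lower in YFP-negative cells. The 3 genes are paralogs that neighbour each other on chromosome 7, and cross-hybridisation between their probe sets was not tested.

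**Figure D2:**
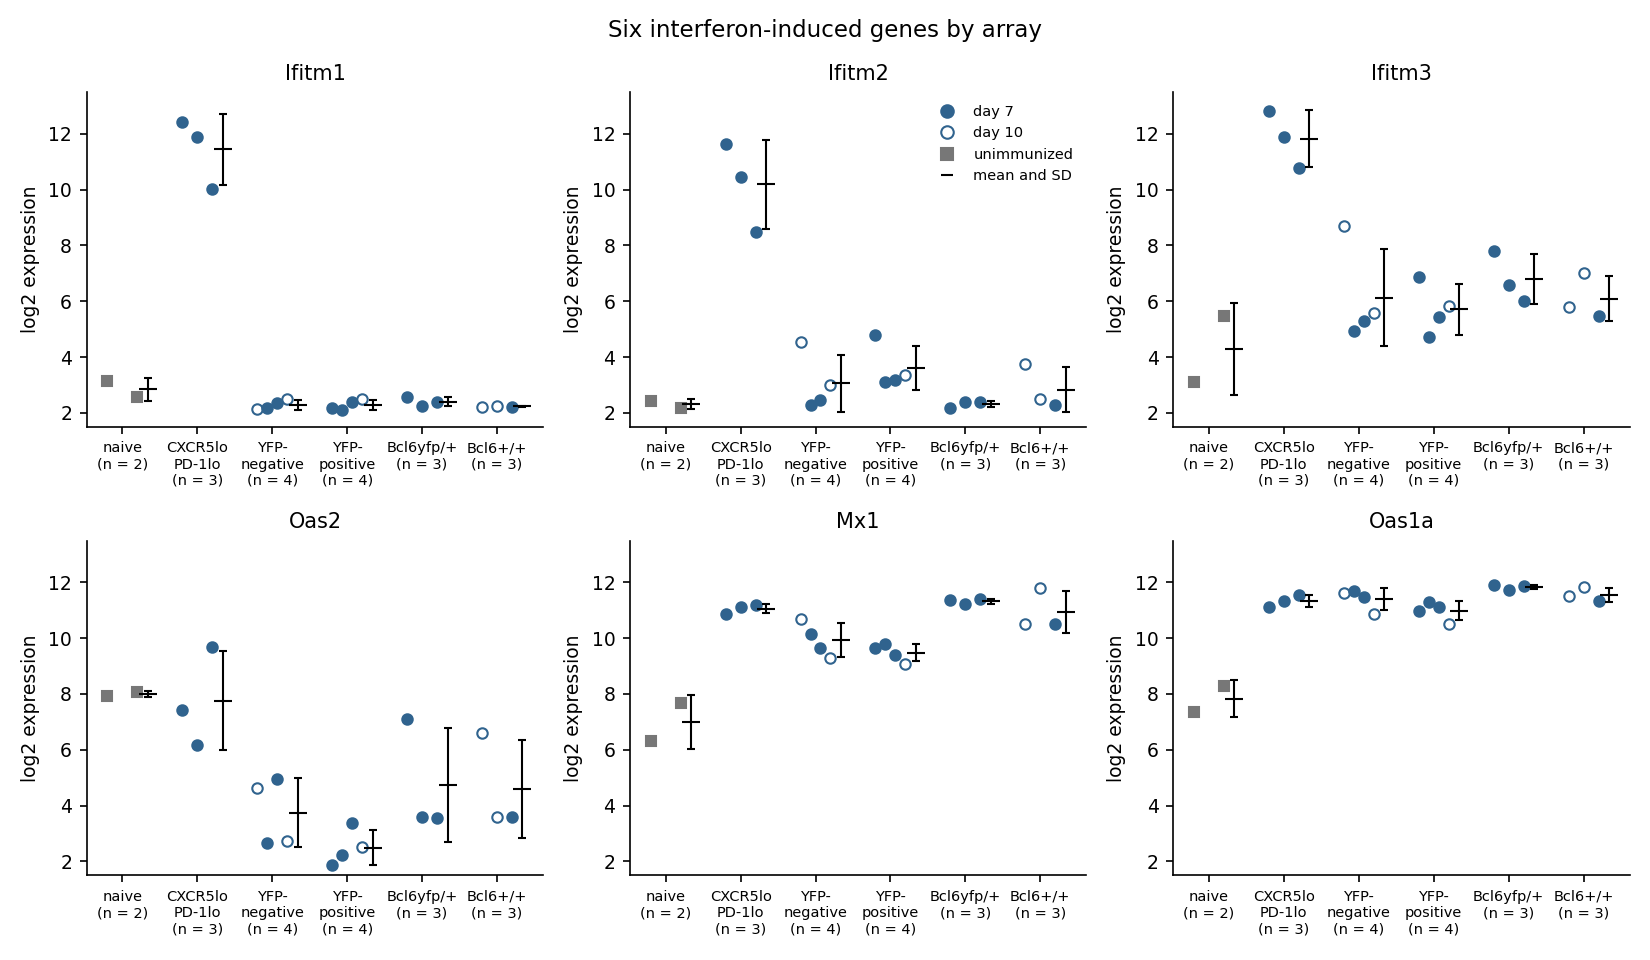
Log2 expression of 6 interferon-induced genes on each array (points) with the mean and SD of each group; filled circles are day 7, open circles day 10 and squares unimmunized mice. Ifitm1 and Ifitm2 are high in the 3 CXCR5lo PD-1lo samples alone, Oas2 is at 7.92 and 8.08 in naive cells and at 3.38 or less in YFP-positive cells, and Mx1 and Oas1a are lowest in naive cells.

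Oas2, a synthetase of the 2-5A messenger that switches on RNase L, fell in both Tfh populations. It was at 7.42, 6.18 and 9.69 in CXCR5lo PD-1lo cells, at 1.88, 2.22, 3.38 and 2.50 in YFP-positive cells and at 4.65, 2.66, 4.96 and 2.73 in YFP-negative cells. The CXCR5lo PD-1lo samples lay above every Tfh sample of the reporter sort. The differences were -5.27 ± 0.99 (SE, adjusted p = 0.00190) and -4.01 ± 0.99 (adjusted p = 0.0197, limma). The YFP-negative call was lost on leaving out YFP-negative replicate 2 or 4 or CXCR5lo PD-1lo replicate 3. With values under log2 4 raised to 4, Oas2 was 13.6-fold lower in YFP-positive cells and 10.3-fold lower in YFP-negative cells. The other synthetases did not share this: Oas1a was at 11.33 ± 0.23 (SD) in CXCR5lo PD-1lo, 10.98 ± 0.35 in YFP-positive cells and 11.41 ± 0.39 in YFP-negative cells, and Oas3 at 10.49 ± 0.35, 10.15 ± 0.37 and 9.99 ± 0.37, neither called.

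The Ifit genes, whose products bind viral RNA caps and ends, were lower in YFP-positive cells by smaller amounts. Ifit3 was at 10.48, 10.90 and 10.68 in CXCR5lo PD-1lo cells and at 8.85, 8.68, 8.43 and 8.62 in YFP-positive cells. The groups did not overlap, and the fitted difference was -2.04 ± 0.48 (SE, limma adjusted p = 0.0101), 4.10-fold; the call was lost without CXCR5lo PD-1lo replicate 2. Ifit1 fell by 1.20 and Ifit2 by 0.95 on the log2 scale. In YFP-negative cells Ifit3 ranged from 9.66 to 11.57 and none of the 3 was called against CXCR5lo PD-1lo cells.

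Of the membrane proteins, Bst2 (tetherin), which retains budding virions at the cell surface, fell in both Tfh populations. Its level was 10.94, 10.95 and 11.09 in CXCR5lo PD-1lo cells, 9.66, 9.38, 9.61 and 8.90 in YFP-positive cells and 9.80, 9.59, 9.5 and 9.15 in YFP-negative cells. The difference was -1.60 ± 0.25 (SE, limma adjusted p = 3.39e-04) in YFP-positive cells and -1.48 ± 0.25 (adjusted p = 8.98e-04) in YFP-negative cells, with no overlap. Rsad2 (viperin), an enzyme that makes a chain-terminating nucleotide, and Rtp4, an inhibitor of flavivirus replication, were not called in either.

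Among the GTPases, Mx1, whose product blocks influenza virus in mice with an intact allele, fell by 1.59 on the log2 scale in YFP-positive cells (11.06 ± 0.16 against 9.47 ± 0.31, SD) and the guanylate-binding protein Gbp2 by 1.16. Gbp2 also fell by 1.01 in YFP-negative cells. Gbp3 and the immunity-related GTPases Igtp and Irgm1 were not called in either comparison. Usp18, which removes ISG15 from proteins and damps type I interferon receptor signalling, fell by 1.56 and Samhd1, which depletes deoxynucleotides, by 1.13 in YFP-positive cells. Of the transcription factors, 2 of 4 were called there as well. Irf7, the amplifier of type I interferon transcription, was at 10.07, 10.73 and 10.78 in CXCR5lo PD-1lo cells and at 9.32, 9.68, 9.54 and 9.74 in YFP-positive cells, a difference of -0.96 ± 0.23 (SE, limma adjusted p = 0.00989). Irf1 differed by -0.62 ± 0.19 (adjusted p = 0.0469). Irf9 and Stat2, the partners in the ISRE-binding complex, were not called. Neither were the 4 sensors, the 3 antigen-processing genes Psmb8, Psmb9 and Tap1, or the nuclear and ubiquitin factors Parp9, Parp14, Sp100 and Trim30a, in either comparison.

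**Figure D3:**
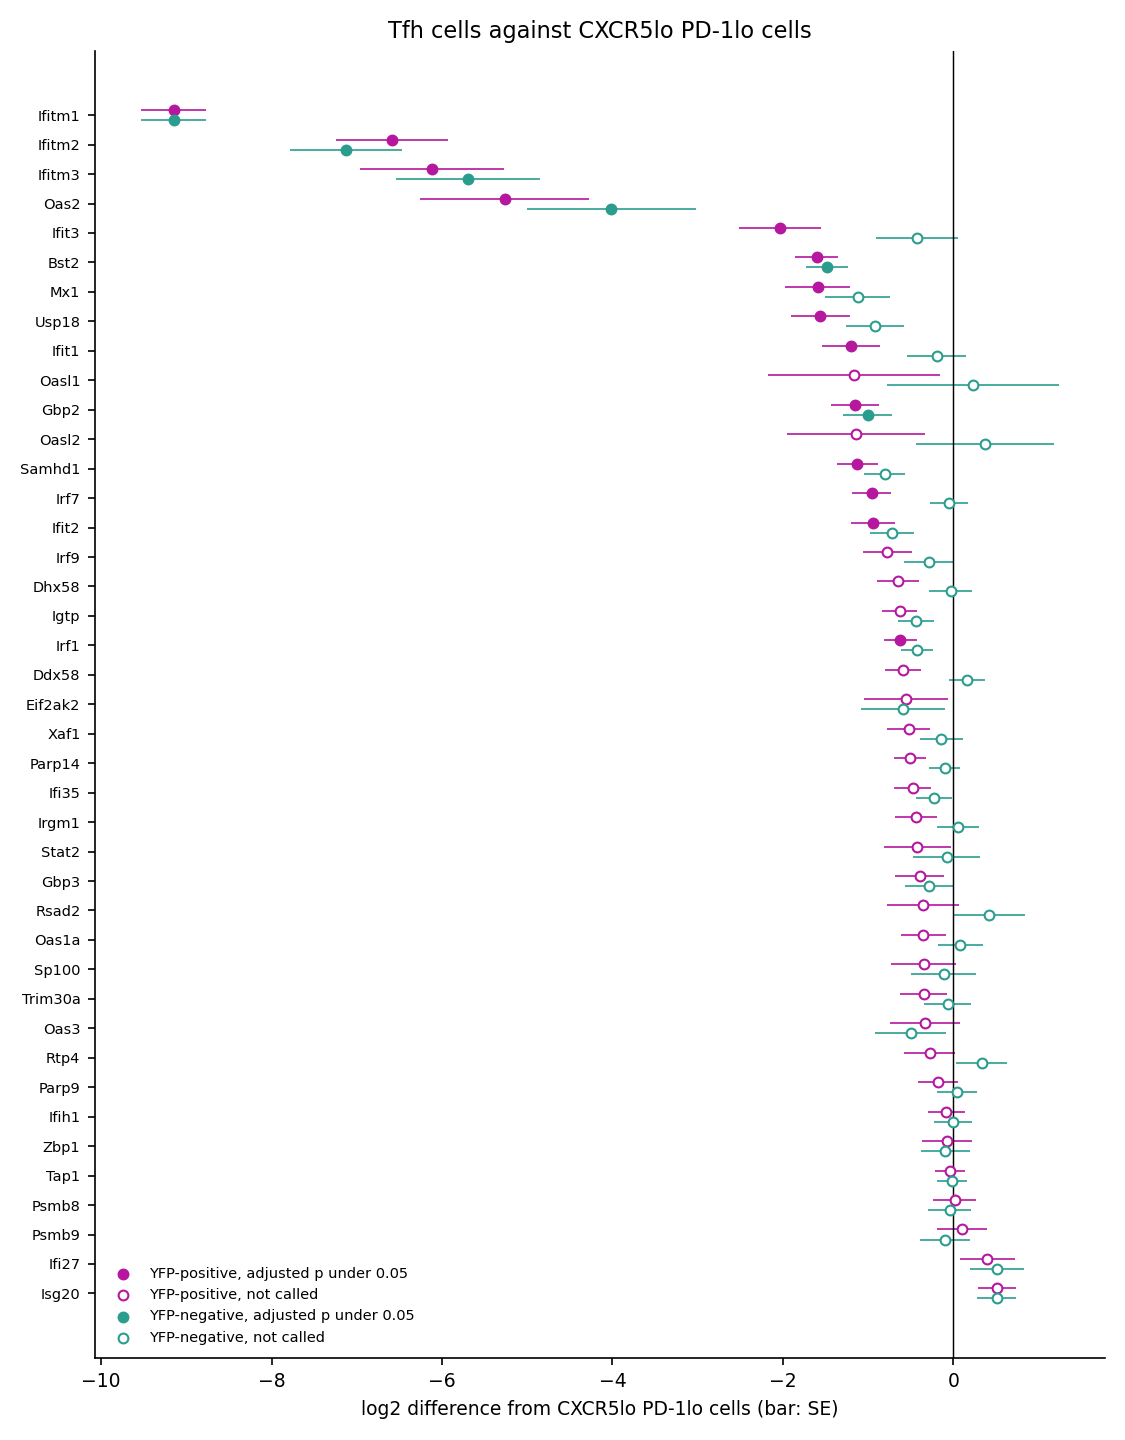
Log2 difference of YFP-positive and YFP-negative Tfh cells from CXCR5lo PD-1lo cells for each of the 41 genes, with bars of 1 SE and filled points for an adjusted p under 0.05. The 4 genes that lie beyond -4 in both populations are Ifitm1, Ifitm2, Ifitm3 and Oas2, and the called remainder lies between -2.04 and -0.62.

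The 3 same-numbered pairs of YFP-positive and CXCR5lo PD-1lo arrays were all from day 7 with Xist present. Within sets 1, 2 and 3 the median difference of the 41 genes was -0.40, -0.74 and -0.59, and 32, 36 and 35 genes were below 0, against 49.5%, 48.1% and 48.85% of all genes. For YFP-negative cells the medians in the same sets were 0.22, -0.27 and -0.25, with 15, 31 and 31 genes below 0; set 1 is the one in which day and Xist differ. Their pooled median of -0.11 ran from -0.22 without CXCR5lo PD-1lo replicate 1 to -0.06 without YFP-negative replicate 4. With the normalization set as a block, 22 genes fell and 2, Isg20 and Ifi27, rose, where 22% of all genes were lower and 22.7% higher by that fit; in YFP-negative cells 11 fell and 2 rose (15.6% and 14.9% of all genes). Without CXCR5lo PD-1lo replicate 2 the YFP-positive count was 8, and without replicate 3 it was 9. Some markers of other cell types moved with this comparison. Of the 5 Th1 genes, Tbx21 was at 9.72, 8.39 and 7.01 and Ifng at 6.15, 7.20 and 8.11 in CXCR5lo PD-1lo cells. In all 8 Tfh samples they were at 3.31 or less and 3.11 or less. Ccl5 was at 5.78, 10.14 and 9.55 in CXCR5lo PD-1lo cells, at 5.41 on YFP-negative replicate 1 and at 2.66 or less on the other Tfh arrays. Cxcr3 did not share this. It was at 11.61, 10.45 and 9.39 in CXCR5lo PD-1lo cells and at 11.82, 10.56, 10.19 and 7.35 in YFP-positive cells. In YFP-negative cells Cxcr3 was at 8.30, 9.75, 9.63 and 5.14. Il12rb2 was under log2 4 everywhere. On the log2 scale the summed level of the list was 10.8 to 12.0 in CXCR5lo PD-1lo, 7.53 to 11.8 in YFP-positive cells and 5.82 to 9.78 in YFP-negative cells. For the 5 plasmacytoid dendritic cell markers the sum was 7.08 to 7.87 in CXCR5lo PD-1lo cells, 4.69 to 6.19 in YFP-positive cells and 5.33 to 6.42 in YFP-negative cells, with Siglech, Clec10a and Cox6a2 under log2 4 on all these arrays. The summed level of the 9 B cell markers went the other way, at 6.36 to 6.79 against 10.8 to 11.8 and 9.52 to 11.5. That sum followed Cd22, at 5.35, 3.37 and 2.84 in CXCR5lo PD-1lo cells and 9.44 to 11.81 in the 8 Tfh samples. Cd79b was higher in CXCR5lo PD-1lo cells, at 5.26 to 5.36 against 2.21 to 2.81. Cd79a, Ms4a1 and Pax5 were among those under log2 4 on all. Of the 11 myeloid and dendritic markers, 8 were under log2 4 on all CXCR5lo PD-1lo arrays, and Lyz2 was at 6.76, 2.29 and 2.30 there. Cd68 was at 2.43, 4.60 and 7.29 there, against 4.92 to 7.85 in YFP-positive and 4.48 to 6.48 in YFP-negative cells. The part of these markers in the result was not tested.

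Between YFP-positive and YFP-negative Tfh cells no gene of the list was called. Higher and lower calls made up 0.0403% and 0.0806% of all genes (limma). Even so, 34 of the 41 genes were lower in YFP-positive cells, against 49.7% of all genes, and the median difference was -0.28, against 0.00 for all genes. By unadjusted p under 0.05, 8 genes were lower (2.39% of all genes) and 0 higher (5.53% of all genes). The 8 were Irf7, Ifit1, Ifit3, Ddx58, Dhx58, Rtp4, Irgm1 and Parp14. In 7 genes the groups did not overlap, each lower in YFP-positive cells; 2.31% of all genes were so separated downwards and 1.58% upwards.

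Ifit3 differed most. It was at 8.85, 8.68, 8.43 and 8.62 in YFP-positive cells and at 11.57, 9.93, 9.66 and 9.87 in YFP-negative cells, so that every YFP-positive array was lower and YFP-negative replicate 1 the highest. The difference was -1.61 ± 0.44 (SE, limma adjusted p = 0.184), 3.06-fold. Oasl2 and Oasl1, ubiquitin-like relatives of the synthetases, came next at -1.52 ± 0.75 (adjusted p = 0.678) and -1.39 ± 0.94 (adjusted p = 0.975). Oasl2 was at 5.11, 4.72, 6.82 and 8.22 in YFP-positive cells and 8.88, 6.39, 7.51 and 8.16 in YFP-negative cells, and Oasl1 at 3.27, 4.30, 6.14 and 6.96 against 6.56, 4.96, 7.30 and 7.41. Their ranges overlapped, and the 2 lowest values of each were YFP-positive replicates 1 and 2. Oas2, with the values above, differed by -1.25 ± 0.92 (adjusted p = 0.9996, limma), and by 1.32-fold with values under log2 4 raised to 4. Ifit1 was at 9.82, 9.93, 9.62 and 10.05 in YFP-positive cells and 11.48, 10.90, 10.31 and 10.75 in YFP-negative cells, without overlap, a difference of -1.004 ± 0.32 (adjusted p = 0.227).

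By role, all 4 transcription factors, all 5 GTPases and all 4 nuclear and ubiquitin factors were below 0, with medians of -0.42, -0.19 and -0.26. Irf7 showed the clearest separation among the transcription factors, at 9.32 to 9.74 in YFP-positive cells and 10.19 to 10.79 in YFP-negative cells (-0.91 ± 0.21, SE, limma adjusted p = 0.112). Of the sensors, Ddx58 (RIG-I), which detects viral RNA ends, was at 9.82 to 9.99 in YFP-positive cells and 10.50 to 11.10 in YFP-negative cells (-0.74 ± 0.20, adjusted p = 0.177), while Zbp1 differed by 0.02 on its brightest probe set and by -0.47 on its other one. The antigen-processing genes had a median of 0.06.

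The median was below 0 in each of the 4 normalization sets. The median of the 41 genes was -0.51, -0.27, -0.28 and -0.14 in sets 1 to 4, with 33, 33, 32 and 28 genes below 0; of all genes, 46.8%, 49.7%, 50.7% and 45.8% were below 0. Sets 2, 3 and 4 pair arrays of the same day and the same Xist status, whereas in set 1 the YFP-positive array is of day 7 and the YFP-negative array of day 10. With the set as a block 7 genes were lower (Irf7, Irf9, Ifit3, Ddx58, Rtp4, Parp14 and Trim30a), where 7.18% of all genes were, and 0 were higher, where 8.38% of all genes were. Without YFP-negative replicate 1 the median was -0.14 and without YFP-positive replicate 4 it was -0.19. Plasma cell markers moved with this comparison: all 4 reached log2 4 on some YFP-negative array, and their summed level, on the log2 scale, ran from 10.7 to 13.0 there and from 10.4 to 11.5 in YFP-positive cells, in which Sdc1 and Mzb1 stayed under log2 4. The summed level of the 11 myeloid markers, on the log2 scale, ran from 6.14 to 11.1 in YFP-negative and from 7.01 to 8.19 in YFP-positive cells, with Csf1r, Itgam, Itgax, Cd14, Fcgr3, Fcer1g, Flt3 and Batf3 under log2 4 on every array of both. Lyz2 was at 10.98 on YFP-negative replicate 1, at 6.73 on YFP-positive replicate 1 and at 3.19 or less on the other arrays of both. Tyrobp was at 5.05 on YFP-negative replicate 1 and at 3.86 or less on the other arrays of both. Cd68 went the other way, at 4.92, 6.38, 6.97 and 7.85 in YFP-positive cells and 4.48, 4.63, 6.48 and 6.12 in YFP-negative cells. The part of the plasma cell and myeloid markers in the result was not tested.

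**Figure D4:**
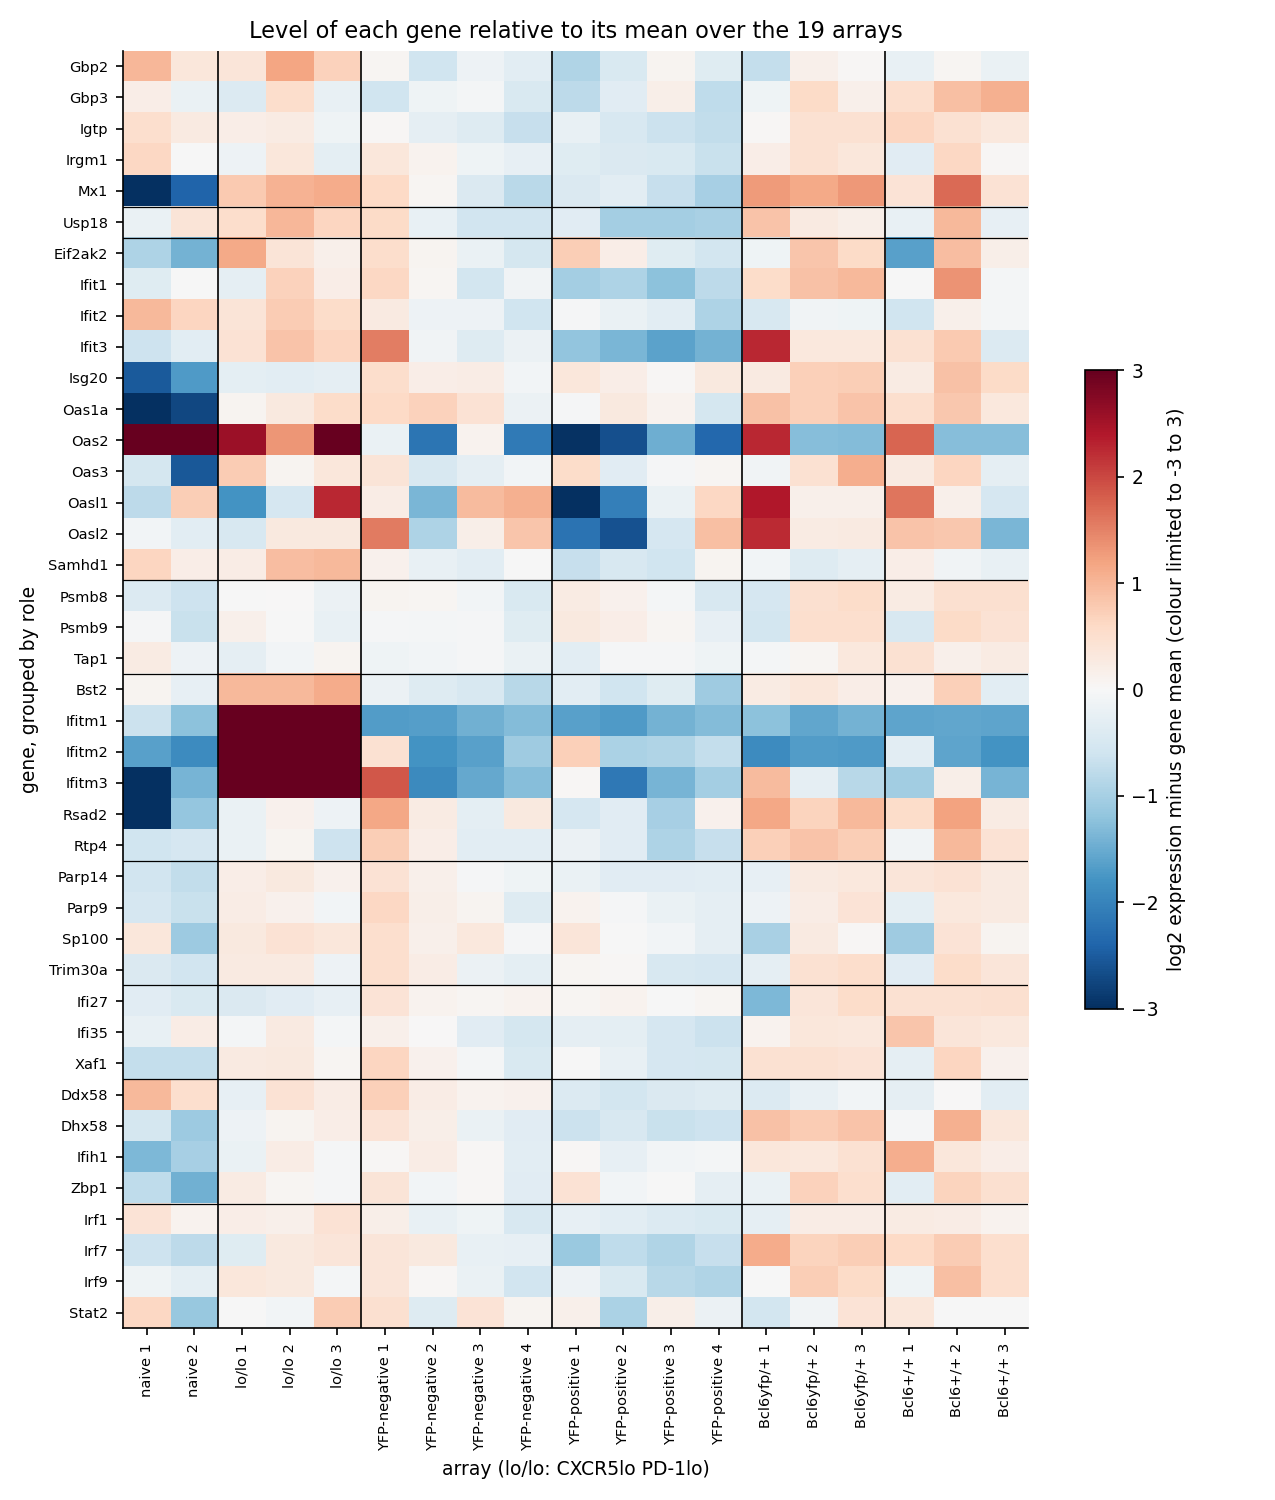
Log2 level of each of the 41 genes on each of the 19 arrays relative to the gene's mean over all arrays, with rows grouped by role and the colour limited to -3 and 3. The 3 Ifitm rows are high in CXCR5lo PD-1lo samples, most rows are below their mean in YFP-positive samples, and the rows of Mx1, Oas1a, Isg20 and Rsad2 are low in naive samples.

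Between Bcl6yfp/+ and Bcl6+/+ Tfh cells 0 of the 41 genes were called, and 0% of all genes in either direction (limma); at an unadjusted p under 0.05 it was 0 of the 41, against 0.0705% of all genes higher and 2.82% lower. The median difference of Bcl6yfp/+ minus Bcl6+/+ cells was 0.05 for the list and -0.26 for all genes as deposited, and 0.34 and 0.02 with arrays moved to the same median. The differences ran from -0.62 for Gbp3 to 0.82 for Oasl2. The deposited median turned or moved on leaving out 1 array: it was -0.07 without Bcl6+/+ replicate 1 and 0.23 without Bcl6+/+ replicate 2. Within set 6, the set with both genotypes, the median was 0.05 (all genes 0.00). The 3 Bcl6yfp/+ arrays were of day 7 and 2 of the 3 Bcl6+/+ arrays of day 10, among them replicate 2 in set 6. Genotype and day thus cannot be fully told apart here. Levels varied more between sets than between genotypes for Oas2, which was at 7.11, 3.58 and 3.57 in Bcl6yfp/+ and 6.61, 3.58 and 3.58 in Bcl6+/+ cells. In both genotypes replicate 1, the array outside set 6, was the high one. Ifit3 likewise was at 12.32 on Bcl6yfp/+ replicate 1 and at 9.63 to 10.82 on the other 5 arrays. A p that misses the threshold does not show that the genotypes act alike.

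Against naive cells, some genes of the list were higher in every immunized population and others lower in Tfh cells, and the counts depended on the scaling. These comparisons share the same 2 naive arrays, which differ in set and in Xist. In CXCR5lo PD-1lo cells 12 genes rose and 0 fell as deposited (10.3% and 1.57% of all genes). With arrays moved to the same median, 6 rose and 4 fell (5.71% and 5.39%). In YFP-positive cells 7 rose and 8 fell (22.4% and 6.44% of all genes), or 4 and 15 after the move (15.9% and 20%). In YFP-negative cells 10 rose and 3 fell (16.5% and 4.62%), or 5 and 8 (12.4% and 13.3%). In the undivided Tfh cells of both Bcl6 genotypes as 1 group 14 rose and 4 fell (28.4% and 5.9%), or 8 and 8 (14.3% and 17.7%). As deposited, the median of all genes stood at 0.46, 0.39, 0.38 and 0.50 above naive cells in the same order, and after the move at -0.13, -0.13, -0.09 and -0.12. The medians of the list were 0.63, 0.02, 0.56 and 0.68, and after the move 0.04, -0.51, 0.10 and 0.05. As deposited, the YFP-positive median was -0.23 without naive replicate 2, and the YFP-negative median was 0.26 without YFP-negative replicate 1. In YFP-positive cells, then, the median difference of the list from naive cells was below that of all genes under both scalings. Within set 4, YFP-positive replicate 4 against naive replicate 1, it was smaller, at -0.08 (all genes 0.02). There 25 of the 41 genes were below 0 (48.1% of all genes).

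The genes called higher in all 4 comparisons as deposited were Isg20, Ifih1, Mx1, Oas1a, Oas3, Rsad2 and Zbp1. Of these, Isg20, Mx1 and Oas1a were so under both scalings. The share of all genes called in all 4 was not taken. Oas1a, another 2-5A synthetase, was at 7.36 and 8.30 in naive cells and between 10.50 and 11.89 on all 17 other arrays. Its differences were 3.50 ± 0.32 (SE) in CXCR5lo PD-1lo, 3.15 ± 0.30 in YFP-positive, 3.58 ± 0.30 in YFP-negative and 3.87 ± 0.29 in undivided Tfh cells, with limma adjusted p from 3.49e-08 to 1.03e-06. Mx1 was at 6.31 and 7.68 in naive cells, at 10.88, 11.12 and 11.18 in CXCR5lo PD-1lo cells, at 9.64, 9.78, 9.39 and 9.08 in YFP-positive cells and at 10.68, 10.14, 9.66 and 9.28 in YFP-negative cells. On the 6 arrays of undivided Tfh cells Mx1 was at 11.35, 11.21 and 11.39 (Bcl6yfp/+) and 10.49, 11.79 and 10.52 (Bcl6+/+). Every immunized sample was above both naive samples, by 4.07 ± 0.46, 2.48 ± 0.43, 2.95 ± 0.43 and 4.13 ± 0.41 (SE) in the order above. Isg20, an exonuclease that degrades RNA, was at 8.54 and 9.36 in naive cells and at 10.73, 10.75 and 10.78 in CXCR5lo PD-1lo cells. It was at 11.40, 11.24, 11.09 and 11.34 in YFP-positive cells and 11.58, 11.24, 11.27 and 10.96 in YFP-negative cells, and from 11.30 to 11.93 in undivided Tfh cells, again with no overlap with the naive samples.

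Rsad2, whose promoter holds 1 ISRE core, was at 7.27 and 9.24 in naive cells and at 9.42 or more on every other array. Its differences were 2.08 ± 0.50, 1.73 ± 0.48, 2.50 ± 0.48 and 2.96 ± 0.45 (SE); after moving arrays to the same median it was called in YFP-negative and undivided Tfh cells alone. Without naive replicate 1 Rsad2 lost its call in YFP-positive and YFP-negative cells, and over all single arrays left out its difference ran from 0.74 to 2.72 and from 1.51 to 3.49 there. Oas3 was at 9.56 and 7.54 in naive cells, at 10.86, 10.16 and 10.44 in CXCR5lo PD-1lo, at 10.65, 9.76, 10.05 and 10.15 in YFP-positive cells and at 10.48, 9.62, 9.83 and 10.02 in YFP-negative cells. The 2 naive samples differed more than the samples of any immunized group, and Oas3 was called after the move in undivided Tfh cells alone. Without naive replicate 2 its call was lost in YFP-positive, YFP-negative and undivided Tfh cells. Ifih1 (MDA5), a sensor of long viral RNA, was higher by 1.08 to 1.62 and Zbp1, a sensor of Z-form nucleic acid, by 1.10 to 1.41 on the log2 scale. A second Zbp1 probe set, nearly as bright, gave smaller differences of 0.15 to 0.70. Ifitm2 and Ifitm3 rose in CXCR5lo PD-1lo cells by 7.88 ± 0.79 and 7.54 ± 1.01 (SE, limma adjusted p of 2.96e-06 and 8.17e-05), or 73.0-fold and 137-fold with values under log2 4 raised to 4. Ifitm1, given again without a test, was 174-fold higher on that scale, and 11 of 40 genes were called higher without it. Naive cells had Ifitm1 at 3.15 and 2.56, Ifitm2 at 2.44 and 2.18 and Ifitm3 at 3.12 and 5.46. None of the 3 was called between naive cells and any Tfh population. Bst2 rose in CXCR5lo PD-1lo cells as well, by 1.11.

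Oas2 went the other way. It was at 7.92 and 8.08 in naive cells, above the 8 reporter-sorted Tfh samples (1.88 to 4.96) and the 6 undivided ones (3.57 to 7.11), and within the range of the CXCR5lo PD-1lo samples. The Oas2 differences were -5.50 in YFP-positive, -4.25 in YFP-negative and -3.33 in undivided Tfh cells on the log2 scale (adjusted p = 0.00155, 0.0123 and 0.0242, limma), which is 16-fold, 12.1-fold and 8.27-fold with values under log2 4 raised to 4. Within set 4, which holds naive replicate 1, the direction was the same for both reporter-sorted populations, the Tfh arrays being at 2.50 and 2.73. The Oas2 call in YFP-negative cells was lost without either naive array, and that in undivided Tfh cells without either naive array or Bcl6yfp/+ replicate 2 or 3, under the set block, with no filter and with only the groups compared in the fit. The synthetases Oas1a and Oas2 differed in opposite directions between naive and Tfh cells.

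Ifit2, whose product binds viral RNA with Ifit1 and Ifit3, was the next of the lower genes. It was at 11.70 and 11.37 in naive cells, at 10.69, 10.52, 10.40 and 9.79 in YFP-positive cells and at 11.01, 10.58, 10.58 and 10.14 in YFP-negative cells, and from 10.12 to 10.87 in undivided Tfh cells. Each Tfh sample was below both naive samples, and the falls were 1.18, 0.96 and 1.02 on the log2 scale. Ddx58 was at 11.37 and 10.89 in naive cells and at 9.98, 9.82, 9.95 and 9.99 in YFP-positive cells, a difference of -1.19 ± 0.24 (SE, limma adjusted p = 0.00138). Of the GTPases, Gbp2 (11.02 and 10.36 in naive cells, 9.13, 9.57, 10.10 and 9.66 in YFP-positive cells) differed by -1.07 ± 0.32 and Igtp (13.04 and 12.81 against 12.32, 12.05, 11.90 and 11.81) by -0.90 ± 0.24. Without naive replicate 1 the calls of Ifit2, Gbp2 and Igtp in YFP-positive cells were lost, and the count there was 5 higher and 2 lower. Ifit2, Ddx58, Igtp and Irgm1 were called lower in all 4 comparisons once arrays were moved to the same median. As deposited, 0 genes were lower in all 4. For Ddx58 this rests on its brightest probe set. As deposited, that probe set gave -0.61, -1.19, -0.45 and -0.95 in CXCR5lo PD-1lo, YFP-positive, YFP-negative and undivided Tfh cells. Another Ddx58 probe set, nearly as bright, gave 0.07, -0.75, 0.004 and 0.05 in that order. A dim one, with a mean of 3.14, gave -1.95, -2.13, -1.47 and -2.90. Leaving out either naive array left 5 called genes in YFP-negative cells and 10 in undivided Tfh cells. As deposited, 15 of the 41 genes were called in none of the 4 comparisons. Shares of all genes called in all 4, in none or without a naive array were not taken. Such counts therefore cannot show a trait particular to the list.

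**Figure D5:**
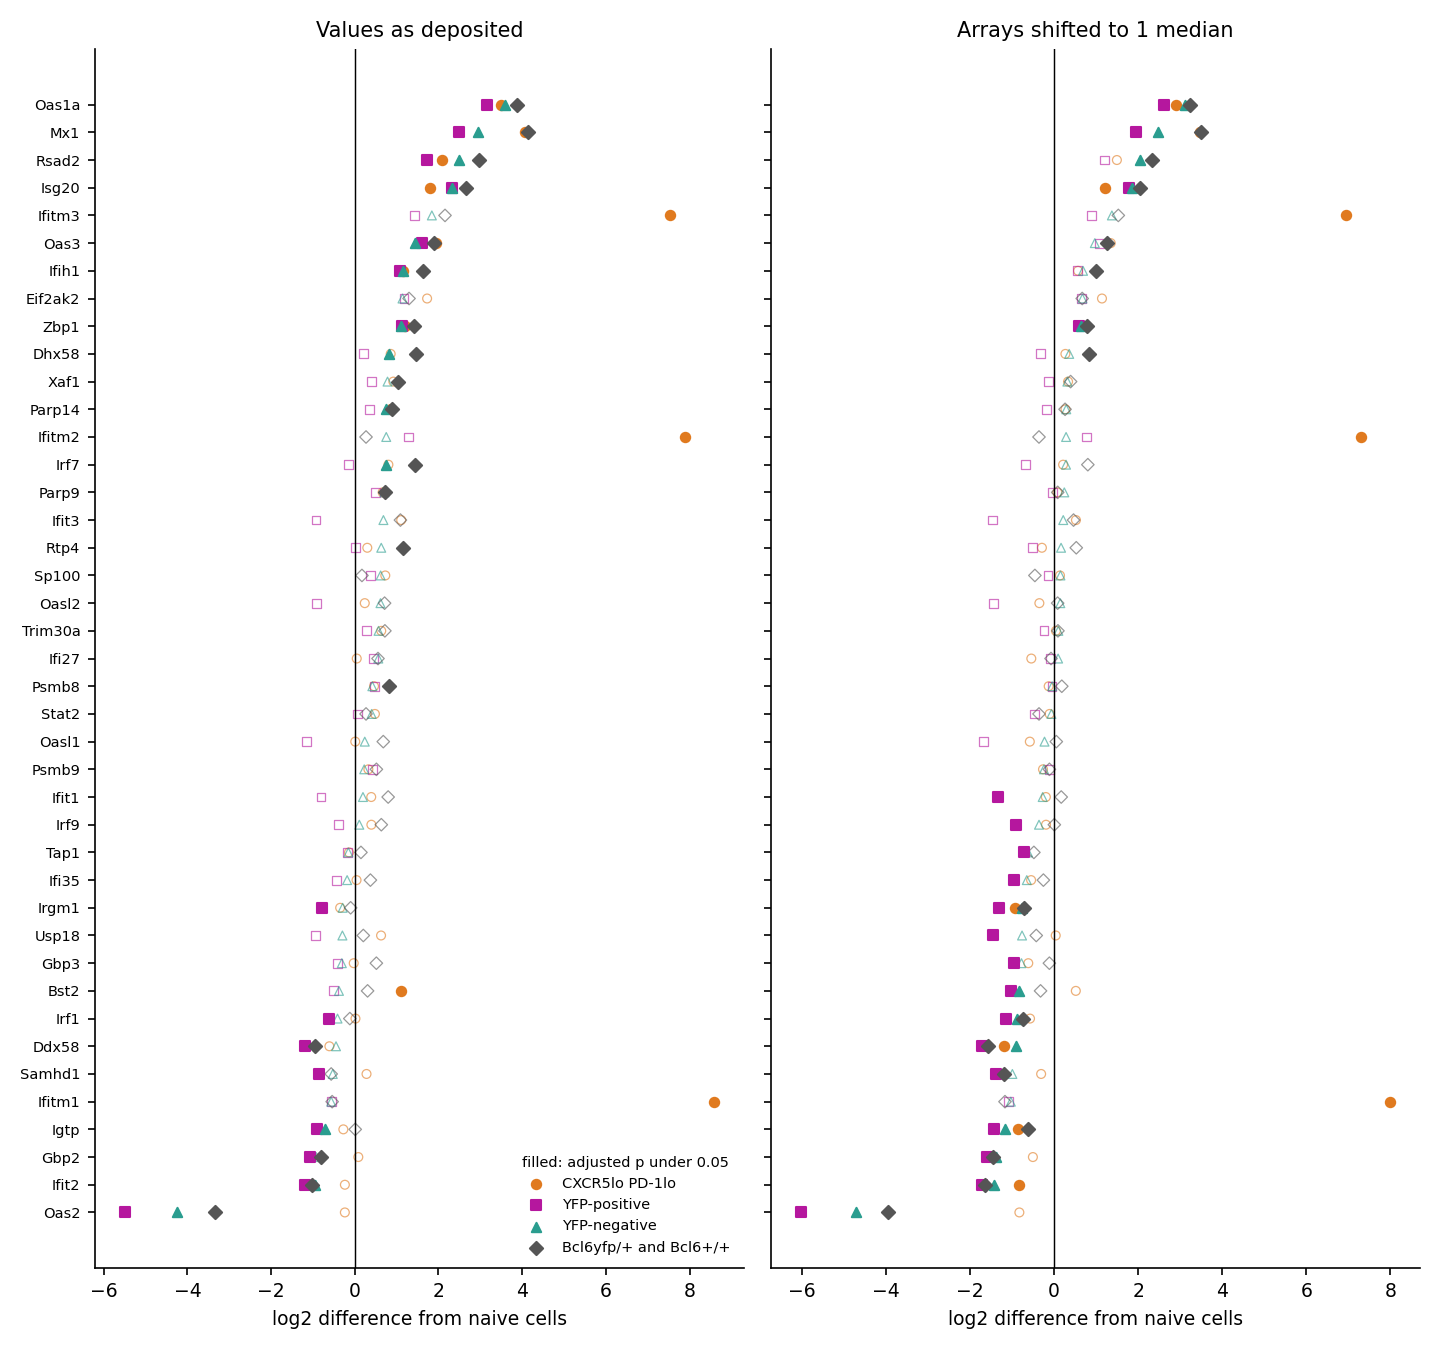
Log2 difference of each immunized population from naive cells for the 41 genes, as deposited (left) and with arrays moved to the same median (right); filled points have an adjusted p under 0.05. Oas1a, Mx1 and Isg20 are filled and above 0 for all 4 populations in both panels, and Oas2 is filled and below 0 for the 3 Tfh populations.

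Day 10 against day 7, with group in the fit, so that only groups sampled on both days inform it, gave no call in the list (limma; 0.181% of all genes were higher and 0.0504% lower). By unadjusted p under 0.05, 3 of the 41 genes were higher and 0 lower, where the percentages of all genes were 3.38% and 6.79%. The largest difference was that of Oasl2, 2.09 ± 0.45 (SE, adjusted p = 0.0730), followed by Oasl1 at 1.47 ± 0.79 (adjusted p = 0.577). In YFP-positive cells the day 10 array had the highest Oasl2 level, 8.22, and in YFP-negative cells the day 10 arrays were at 8.88 and 8.16, above the day 7 arrays at 6.39 and 7.51. In Bcl6+/+ cells the day 10 arrays were at 8.18 and 8.14 and the day 7 array at 5.95. Xist was under log2 4 on all these day 10 arrays. The median difference of the list was 0.05 (all genes -0.14) as deposited, 0.23 with arrays moved to the same median (all genes 0.05) and 0.31 with the set as a block (all genes -0.05). Leaving out 1 array moved the deposited value between -0.06, without YFP-negative replicate 1, and 0.13, without YFP-negative replicate 4.

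Of the receptor chains upstream of the list, Ifnar1 was at 10.26 to 11.94 and Ifnar2 at 9.52 to 10.97 over the 19 arrays, and neither was called between immunized groups as deposited. With arrays moved to the same median, Ifnar1 was lower than in CXCR5lo PD-1lo cells by the test in YFP-positive cells (-0.72, adjusted p = 0.00194, limma) and in YFP-negative ones (-0.69, adjusted p = 0.00369). Ifnar2 was higher than in naive cells by 1.04 in CXCR5lo PD-1lo, 1.09 in YFP-positive, 0.94 in YFP-negative and 1.04 in undivided Tfh cells as deposited; after the move the Ifnar2 differences were 0.45, 0.57, 0.47 and 0.41, and the YFP-positive one alone was called. Ifng itself was at 6.15, 7.20 and 8.11 in CXCR5lo PD-1lo cells and at 3.11 or less in all 8 reporter-sorted Tfh samples and both naive samples. On the arrays of undivided Tfh cells it was at 5.64 on Bcl6+/+ replicate 2 and at 2.80 or less on the others. Ifngr1, its ligand-binding chain, was not called in any comparison as deposited; it was at 10.25, 10.11 and 9.29 in CXCR5lo PD-1lo cells and at 8.30 to 9.26 in YFP-positive cells. After the move Ifngr1 was called lower against CXCR5lo PD-1lo cells in YFP-positive (-0.998) and YFP-negative cells (-0.53), and against naive cells in YFP-positive (-0.95) and undivided Tfh cells (-1.13). Ifngr2, the signalling chain, was at 7.66, 5.40 and 9.32 in CXCR5lo PD-1lo cells and at 3.51, 3.51, 5.40 and 4.78 in YFP-positive cells, with a difference of -3.16 (adjusted p = 0.0484, limma), a call lost after the move (adjusted p = 0.0504).

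Of 35 measured genes of interferon production and signalling outside the list, 28 passed the filter. Against CXCR5lo PD-1lo cells 2 rose and 6 fell in YFP-positive cells (5.17% and 5.39% of all genes) and 3 rose and 2 fell in YFP-negative cells (3.13% and 3.39%). With arrays moved to the same median the counts were 3 and 8 in YFP-positive cells (897 and 814 of all 9928 genes), and 3 and 4 in YFP-negative cells (591 and 487). Ifng and Tlr7, a sensor of single-stranded RNA, are among the lower ones but lay near the floor in Tfh cells: Tlr7 was at 2.11, 3.63 and 4.81 in CXCR5lo PD-1lo cells and at 2.13 to 2.22 in YFP-positive cells, and it was not called after the move. Ifng passed the filter through the CXCR5lo PD-1lo arrays, with Bcl6+/+ replicate 2 the only other array at log2 4 or more. Its place in these counts, also in those against naive cells, is thus a description and not a test. Irf8, a transcription factor of B and myeloid cells that T cells also induce, rose by 1.56 and 1.15 in the 2 Tfh populations, and the phosphatase gene Ptpn11 by 1.53 in each. Relative to naive cells 10, 6, 8 and 9 of the 28 rose and 0, 1, 1 and 1 fell in the order used above. Of all genes, 10.3%, 22.4%, 16.5% and 28.4% were higher and 1.57%, 6.44%, 4.62% and 5.9% lower. The 1 lower gene was Tlr7 each time, at 5.35 and 4.37 in naive cells. Tlr7 passed the filter through these arrays, with CXCR5lo PD-1lo replicate 3 the only other one at log2 4 or more. Its fall from naive cells is thus a description and not a test. After the move 4, 5, 4 and 6 of the 28 rose and 0, 7, 2 and 4 fell. Of all genes, 5.71%, 15.9%, 12.4% and 14.3% were then higher and 5.39%, 20%, 13.3% and 17.7% lower. As deposited, Irf4 was higher than in naive cells by 6.17, 4.99, 5.02 and 5.26. Of 58 further interferon-induced genes measured, 55 passed the filter. Ifi213, a nucleic acid sensor of the Ifi200 family, was the 1 gene of these called between YFP-positive and YFP-negative cells, at -1.53 (adjusted p = 0.0161). Against CXCR5lo PD-1lo cells 3 rose and 10 fell in YFP-positive cells, led by Ms4a4c (-2.72), Slfn8 (-2.15) and Ifi213 (-1.94) below and Ifi204 (3.34), Cxcl10 (2.86) and Tor3a (1.02) above. In YFP-negative cells 2 rose and 4 fell. Of all genes, 5.17% and 5.39% did so in YFP-positive cells and 3.13% and 3.39% in YFP-negative cells. After the move these counts were 2 and 12 in YFP-positive cells (897 and 814 of all 9928 genes), and 2 and 2 in YFP-negative cells (591 and 487). No gene of either list was called between the Bcl6 genotypes or between days.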

How the data were processed

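Expression was measured on 19 arrays, and the deposited values are log2 signals that the authors made with GCRMA, per the submitters' processing notes; its version is not given in the sources used here. Of 45101 probe sets, 34945 carried 1 gene symbol, 932 several and 9160 none. A gene was kept where its brightest probe set reached log2 4 on 2 arrays. Comparisons were fitted over all 19 arrays with limma 3.58.1 in R 4.3.3, with Benjamini-Hochberg adjustment over 9928 genes and a call at an adjusted p under 0.05; tables were made with Python 3.11.15. The procedure was tested on simulated data. Low GCRMA values crowd near log2 2, so folds there were also taken with values under log2 4 raised to 4. GCRMA fits arrays together, and the deposited columns fell into 7 sets of shared distribution (tolerance 0.06), which bears on comparisons across sets. Same-numbered samples deviated together in every pair (correlations of 0.267 to 0.868). Those of the 3 reporter-sorted groups also shared a normalization set, so the correlations cannot show whether samples were paired. Replicate 1 of YFP-positive cells was of day 7 with Xist, and that of YFP-negative cells of day 10 without it. A replicate block was therefore an alternative only. Other alternatives were the set as a block, arrays moved to the same median, other filters and leaving out each array. With the replicate block 0, 16, 7 and 0 members were called in YFP-positive against YFP-negative cells, both Tfh populations against CXCR5lo PD-1lo cells, and the Bcl6 genotypes, where 0.745%, 20.8%, 11.2% and 0% of all genes were. Genes named with all their values were the called members with up to 5 highest and 5 lowest differences in a comparison, and between YFP-positive and YFP-negative cells the 5 largest whether called or not; of the other pathway genes, up to 3 called per direction, and the interferon gamma gene and the receptor chains. Members and lists were chosen with earlier results of these data known. The number of arrays limits the precision.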

Additional observations from a re-analysis of the deposited data

Results flagged for a closer look

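Of 38 groups of 4 arrays tested, over the named genes, 2 held an array far from the others, judged by its gap to the nearest array as a share of the group's range; chance flags about 1 in 20 groups. Ifit3 was at 11.568 on YFP-negative replicate 1, where the other 3 arrays lay between 9.662 and 9.93. Ifitm2 was at 4.787 on YFP-positive replicate 1, where the other 3 lay between 3.123 and 3.349. Both arrays belong to set 1, and the first is the array with Jchain at 12.42 and Lyz2 at 10.98.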

How the results depend on the processing

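Of 47 results for named genes under 1331 alternatives, 1247 kept their direction and side of the threshold, 83 lost the call, 1 gained it and 0 reversed. With the set as a block, 7 members were called in YFP-positive against YFP-negative cells, 24 in YFP-positive and 13 in YFP-negative against CXCR5lo PD-1lo cells. By that fit 8.38%, 22.7% and 14.9% of all genes were higher and 7.18%, 22% and 15.6% lower, in the same order. With only the groups compared in the fit, the counts against naive cells were 6 for CXCR5lo PD-1lo, 7 for YFP-negative and 11 for undivided Tfh cells, and with day as a covariate 8 for YFP-negative cells; the cause was not tested. The replicate block gave 0, 16, 7 and 0 calls, as given with the processing, and moved none of these counts by over 1.5 times. Leaving out each array in turn, the called members ranged from 0 to 1 in YFP-positive against YFP-negative cells (1 without YFP-positive replicate 4), from 8 to 17 in YFP-positive and 4 to 8 in YFP-negative against CXCR5lo PD-1lo cells, from 0 to 0 between Bcl6 genotypes and from 0 to 1 between days. Against naive cells they ranged from 8 to 16 in CXCR5lo PD-1lo, 7 to 16 in YFP-positive, 5 to 17 in YFP-negative and 10 to 22 in undivided Tfh cells. Shares of all genes were not taken for the fits with only the groups compared, with day as a covariate or without single arrays. Those counts describe stability and cannot show a trait of the list. Genes near log2 2 are at the floor of the scale, which limits the size of their differences.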
